A study of Mus musculus with 7 samples.

Results

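The genes described here are 9 genes of interferon signaling and the antiviral response: the transcription factors Stat2, Irf1, Irf7 and Irf9, and the antiviral effectors Zc3hav1, Parp10, Parp14, Adar and Eif2ak2. They were taken by symbol from the 24035 genes of the count table, and all 9 were among the 12354 genes with enough counts to be tested. The diets were compared to find early changes of expression in β-cells. These were sorted from the islets of male C57BL/6N mice on a chow diet (CD, replicates 1 to 4, n = 4 mice) or given a high-fat diet (HFD, replicates 2 to 4, n = 3 mice) for 2 days from 12 weeks of age, with no other treatment or transgene in either group. The sort used ZIGIR, a dye for the zinc of insulin granules, against a fluorescent exendin-4, a ligand of the GLP-1 receptor, and polyadenylated RNA of each mouse was sequenced as one library.

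Type I and III interferons are secreted when a cell senses foreign nucleic acid. They act through receptors and Janus kinases on STAT proteins such as STAT2. STAT2 joins IRF9 in a complex that binds the interferon-stimulated response element (ISRE), whereas interferon-γ acts through the gamma-activated site (GAS). The induced genes block viral RNA and translation, and in islets this programme is known mainly from viral infection and autoimmune diabetes.

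Libraries held 11145642 to 22557957 counts on CD, with CD 3 the deepest, and 10559175 to 14391602 on HFD. The 2 insulin genes made up 27.7% to 29% of the counts on CD and 29.9% to 30.9% on HFD, each HFD library above every CD library, and all 10 β-cell markers were tested. HFD 3 stood apart, with 9627 genes that had a count against 12484 to 14600 in the others. Of the genes with at least 50 counts in every other library, 8.55% had 0 counts in HFD 3, against at most 0.0118% in any other library. CD 3 stood apart in the interferon genes themselves, as given after the single genes. Values without both libraries are given for the members and for the genes of lowest p in each pathway list.

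Promoter stretches of 3 members are shown because they hold a motif of the kind where STAT and IRF complexes bind in responsive genes. RefSeq promoter windows (GRCm38.p6, 250 bases before to 50 bases after a start) were matched for 7 of the 9 members. The ISRE was searched as GAAANNGAAA and the GAS as TTCNNNGAA, on both strands. The capitals in the lines below mark the matched motif, the ISRE for Stat2 and the GAS for Irf1 and Eif2ak2.

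Stat2, chr10:128270248-128270315 (+ strand): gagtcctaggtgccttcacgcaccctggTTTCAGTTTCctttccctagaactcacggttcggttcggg

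Irf1, chr11:53769894-53769962 (+ strand): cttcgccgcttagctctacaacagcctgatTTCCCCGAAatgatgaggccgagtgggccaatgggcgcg

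Eif2ak2, chr17:78882712-78882780 (- strand): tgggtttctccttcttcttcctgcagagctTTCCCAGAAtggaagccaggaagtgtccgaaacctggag

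Positions count from the RefSeq start of each window. For Stat2 and the Adar window with a match, the bases after that start were not found in a GENCODE transcript, so the start differs from the gene coordinates given with the values. The match in Stat2 is on the reverse strand and begins 222 bases before the start, that in Irf1 begins 90 bases before it, and that in Eif2ak2 begins 178 bases before it. Eif2ak2 also holds an ISRE, GAAAACGAAA, that begins 18 bases after the start, and Adar holds a GAS 22 bases after the start in 1 of its 3 windows. Of all 32851 windows of the same length, 3.44% held the ISRE and 8.3% the GAS, and the 2 motifs do not overlap each other in any of these members. A match is a description of the sequence. Members with a match include 2 with lower mean levels on HFD (Stat2, Irf1) and 2 with higher ones (Adar, Eif2ak2).

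Most of these genes had lower mean levels on HFD, Zc3hav1 and Stat2 by the smallest p, but none passed the test after adjustment, and only Zc3hav1 kept an unadjusted p under 0.05 in every analysis. Of the 9 members, 7 had a log2 fold change (HFD over CD) below 0, where 57.9% of all genes tested did, and their median was −0.80 against −0.08 for all genes. At an adjusted p of 0.05 (quasi-likelihood fit of edgeR), 0 members passed, as did 0% of all genes. At an unadjusted p under 0.05, 3 members (Stat2, Zc3hav1 and Parp10) were lower, against 2.91% of all genes, and 0 were higher, against 2.86%. The 3 HFD libraries lay below every CD library in 2 members (Zc3hav1 and Parp10), against 5.37% of all genes. Under criteria modelled on the study's Methods (unadjusted p under 0.1, a coefficient of variation under 1, a mean level over 5 per kilobase and one direction of change, read here as a fitted fold change of the same sign as the difference of the means), 4 members (Stat2, Irf1, Zc3hav1 and Parp10) would be listed, against 9.05% of all genes. This share belongs to the present reading of the criteria and is not the study's own rate, and no p was adjusted. The criteria follow those that the study applied to the same libraries, and the 9 genes were chosen with earlier results of these data known. The count is therefore not independent evidence. Levels of single libraries are given as CPM, the count of a gene relative to its library's total after TMM scaling. In bulk RNA, fewer cells that express a gene and less RNA per cell cannot be told apart.

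**Figure D1:**
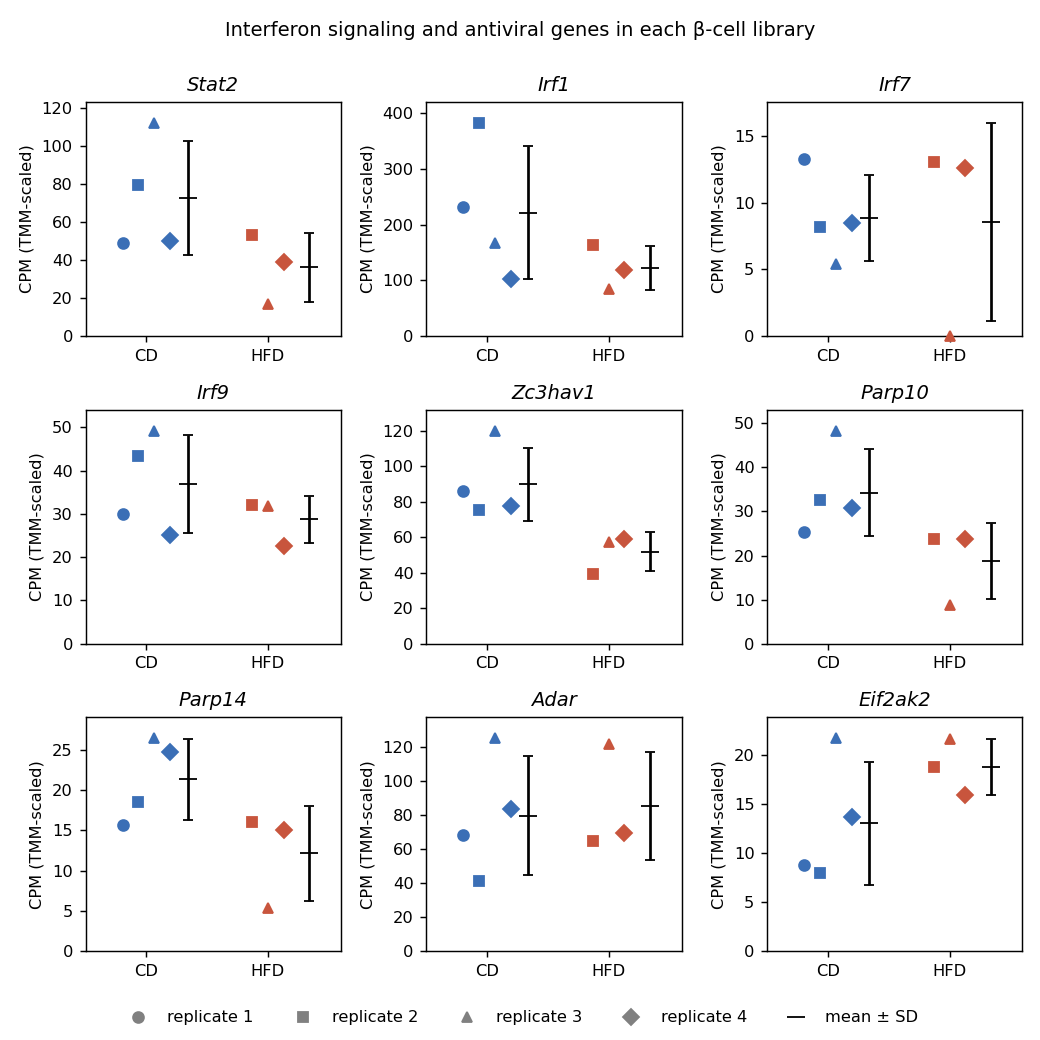
CPM (y axis, from 0) of the 9 genes in each CD library (blue, n = 4) and HFD library (red, n = 3), with a marker shape for each replicate number and the mean ± SD beside the points. The HFD points of Zc3hav1 and Parp10 lie below all CD points, CD 3 is the highest point in 7 of the 9 panels, and Irf7 is at 0 in HFD 3.

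Stat2 (chr10:128270559-128292849, + strand, GRCm38) encodes the STAT that is specific to type I and III interferon signaling. It had 48.7, 79.4, 112 and 50.1 CPM in CD 1 to 4, and 52.9, 16.9 and 38.9 CPM in HFD 2 to 4. CD 3 was the highest and HFD 3 the lowest library, and HFD 2 lay above CD 1 and CD 4, so the groups overlapped. The mean was 72.5 ± 29.7 CPM in CD mice (SD, n = 4) and 36.2 ± 18.1 CPM in HFD mice (SD, n = 3), with a log2 fold change of −1.0 ± 0.41 (SE, edgeR unadjusted p = 0.0356, adjusted p = 0.854). Without CD 3 and HFD 3 it was −0.38 ± 0.23 (SE, edgeR unadjusted p = 0.134).

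Irf9 (chr14:55603571-55610030, + strand), the DNA-binding partner of STAT2, had 30, 43.3, 49.2 and 25 CPM on CD and 32, 31.8 and 22.5 CPM on HFD. The groups overlapped, with CD 3 again highest, and unlike Stat2 the gene was not low in HFD 3. The log2 fold change was −0.36 ± 0.28 (SE, edgeR adjusted p = 0.904), and −0.27 ± 0.26 without CD 3 and HFD 3. Its annotation shares 123 exonic bases with Rnf31 on the same strand, which had means of 62.9 CPM on CD and 43.1 CPM on HFD. The part of shared reads was not tested.

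Irf1 (chr11:53770014-53778374, + strand), a factor that interferon-γ induces rapidly, was the most abundant member. It had 232, 382, 167 and 103 CPM on CD and 163, 83.7 and 119 CPM on HFD. The CD mice spread over 3.69-fold, the widest range on CD of any member, and CD 4 lay below HFD 2 and HFD 4. The log2 fold change was −0.86 ± 0.40 (SE, edgeR unadjusted p = 0.0592, adjusted p = 0.857), and its highest library was CD 2, not CD 3. Without CD 3 and HFD 3 it was −0.76 ± 0.39, and without CD 2 it was −0.47 ± 0.33 (SE, edgeR unadjusted p = 0.191).

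Irf7 (chr7:141262706-141266481, − strand), which amplifies type I interferon production, had 13.3, 8.21, 5.43 and 8.51 CPM on CD and 13.1, 0 and 12.6 CPM on HFD. HFD 3 had 0 counts, which at that depth allows up to 0.275 CPM (3 counts) by counting error alone, where the other libraries had 92 to 181 counts. That bound leaves out the sparseness of HFD 3, where 8.55% of genes with at least 50 counts in every other library had 0 counts. HFD 2 and HFD 4 lay above 3 of the 4 CD libraries. The log2 fold change was −0.04 ± 1.14 (SE) with all libraries, 0.53 ± 0.37 without HFD 3, 0.36 ± 0.33 without CD 3 and HFD 3, and 0.22 ± 1.35 without CD 1, so its sign depended on single libraries.

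Among the effectors, Zc3hav1 (chr6:38305286-38354603, − strand) gave the clearest difference. It encodes ZAP, a zinc finger protein of the PARP family that binds CpG-rich viral RNA and brings about its decay. It had 86, 75.6, 120 and 77.7 CPM in CD 1 to 4, and 39.3, 57.2 and 58.9 CPM in HFD 2 to 4. The groups did not overlap, and the lowest HFD library was HFD 2, not HFD 3. The mean was 89.9 ± 20.8 CPM in CD mice (SD, n = 4) and 51.8 ± 10.9 CPM in HFD mice (SD, n = 3), with a log2 fold change of −0.80 ± 0.22 (SE, edgeR unadjusted p = 0.00477, adjusted p = 0.731). The gene ranked 76 of 12354 by p. It had an unadjusted p under 0.05 in all 16 alternative analyses, in which its log2 fold change ranged from −0.92 to −0.63, and it was −0.70 ± 0.19 without CD 3 and HFD 3. By DESeq2 its adjusted p was 0.0281 and it was the only member to pass, while its adjusted p over the 16 analyses reached 0.994.

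Parp10 (chr15:76231174-76243441, − strand) and Parp14 (chr16:35832874-35871544, − strand) encode mono-ADP-ribosyltransferases that interferon induces. Parp10 had 25.3, 32.5, 48.3 and 30.8 CPM on CD and 23.8, 8.88 and 23.7 CPM on HFD. No HFD library reached the lowest CD library, but HFD 2 was only just below CD 1. Its log2 fold change was −0.86 ± 0.38 (SE, edgeR unadjusted p = 0.0483, adjusted p = 0.854), and −0.32 ± 0.20 without CD 3 and HFD 3. Parp14 had 15.7, 18.5, 26.4 and 24.7 CPM on CD and 16, 5.31 and 15.1 CPM on HFD. HFD 2 lay above CD 1, so the groups overlapped by 1 library. Its log2 fold change was −0.81 ± 0.44 (SE, edgeR unadjusted p = 0.0965, adjusted p = 0.870), and −0.34 ± 0.26 without CD 3 and HFD 3. In both genes CD 3 was the highest and HFD 3 the lowest library. Parp10 shares 205 exonic bases with Plec on the same strand, and Plec differed little in its means (85.8 CPM on CD, 85.3 CPM on HFD).

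Adar and Eif2ak2 both act on double-stranded RNA. Adar (chr3:89715022-89753446, + strand), the adenosine deaminase that edits such RNA and so hides the cell's own transcripts from its sensors, had 68.5, 41.5, 125 and 83.4 CPM on CD and 64.7, 122 and 69.3 CPM on HFD. CD 3 and HFD 3 were nearly equal and above the rest, and the log2 fold change was 0.09 ± 0.35 (SE, edgeR adjusted p = 0.968), and 0.05 ± 0.24 without both of these libraries. Adar shares 1365 exonic bases with Chrnb2 on the opposite strand, which had means of 50.7 CPM on CD and 38.7 CPM on HFD. The use of strand in counting is not given in the sources used here. Eif2ak2 (chr17:78852564-78882573, − strand) encodes PKR, the kinase that stops translation by phosphorylating eIF2α. It had 8.81, 8.03, 21.7 and 13.7 CPM on CD and 18.8, 21.6 and 15.9 CPM on HFD. The HFD libraries lay above every CD library but CD 3, and the log2 fold change was 0.52 ± 0.42 (SE, edgeR unadjusted p = 0.247, adjusted p = 0.910). Without CD 3 and HFD 3 it was 0.76 ± 0.31 (SE, edgeR unadjusted p = 0.0316, adjusted p = 0.572), the opposite direction to Zc3hav1 in the same 5 libraries.

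**Figure D2:**
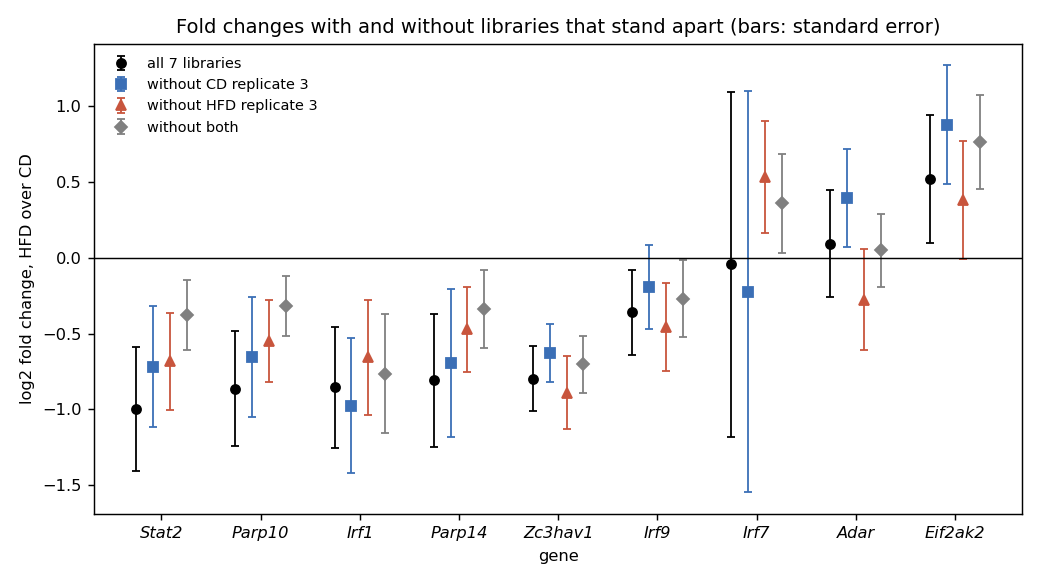
Log2 fold change, HFD over CD (y axis), of each gene (x axis) with its standard error, from all 7 libraries (black), without CD replicate 3 (blue), without HFD replicate 3 (red) and without both (grey). Zc3hav1 stays between −0.89 and −0.63, Stat2 goes from −1.0 to −0.38 and Parp10 from −0.86 to −0.32 without both, and Irf7 lies on either side of 0.

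Levels of different genes are compared per kilobase of the longest annotated transcript. On CD, Irf1 had the highest level at 103 CPM per kb, above 97.5% of the genes tested. Zc3hav1 (18.2 CPM per kb), Stat2 (16.5), Adar (13.5), Parp10 (10.1) and Irf9 (9.53) followed, and among these 5 the CD ranges of neighbours overlapped, while that of Irf1 lay above them. Eif2ak2 (3.03 CPM per kb), Parp14 (2.87) and Irf7 (2.73) were the lowest, with CD ranges that overlapped, and each was above 26.9% to 28.6% of the genes tested. For Irf7 and Irf9 the longest transcript is not the full coding one, and over the longest coding transcript their levels were 3.96 and 12.5 CPM per kb.

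Single libraries differed widely in this set. CD 3 was the highest library in 7 of the 9 members (Irf1 and Irf7 being the exceptions), where it was the highest in 19.7% of all genes tested, and HFD 3 was the lowest in 5 of the 9 (55.6%), where it was the lowest, alone or tied, in 48.1% of all genes tested. The median difference from a gene's own median over the 7 libraries, on the log2(CPM + 0.5) scale, was 0.67 in CD 3 and −0.96 in HFD 3 for the members, and between −0.09 and 0.20 in the other 5 libraries. Over all genes it was 0 in CD 3 and −0.21 in HFD 3. Without CD 3 the members' median log2 fold change was −0.63, without HFD 3 −0.47, and without both −0.32 with 6 of 9 below 0. Over all genes tested these medians were −0.06, −0.04 and −0.01, and 51.4% were below 0 without both. The part of these 2 libraries in the lower members other than Zc3hav1 was not tested beyond leaving them out.

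The same libraries stood out in 53 other interferon-induced effectors, of which 51 were in the table and 40 were tested. CD 3 was at least 2-fold above the next library in 7 of the 40 (17.5%, against 1.7% of all genes). These 7 were named after their values were seen. Others of the list were not high in CD 3, such as Oas1a, a gene of low level, with 0.673 CPM there against 5.39 in HFD 2. Isg15 (0 CPM in CD 3, at most 18 counts in a library) and Ifit2 (0.135 CPM in CD 3, at most 3 counts) were too low to be tested. They cannot show whether CD 3 was high. Mx2 was high in both CD 3 (14.1 CPM) and HFD 3 (15.6 CPM), against 6.54 CPM or less elsewhere. Ifit1, which binds viral RNA caps, had 30.3 CPM in CD 3 against 5.6 or less elsewhere. Ifit3, its partner, had 19.7 CPM against 2.36 or less. Mx1, a GTPase that blocks influenza virus, had 11.9 CPM against 2.29 or less, and Oas1b, of the oligoadenylate synthetase family, had 9.78 CPM against 2.51 or less. The others were Trim34a and the interferon-inducible GTPases Igtp and Irgm1, the last at 44.4 CPM in CD 3 against 13.4 or less. HFD 3 had 0 counts in 20 of the 40 (50%), against 22.7% of all genes, which were not matched to the effectors for level. Mean levels on CD of these 20 ran from only 1.08 to 18.8 CPM. The part of low levels in this share was not tested.

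**Figure D3:**
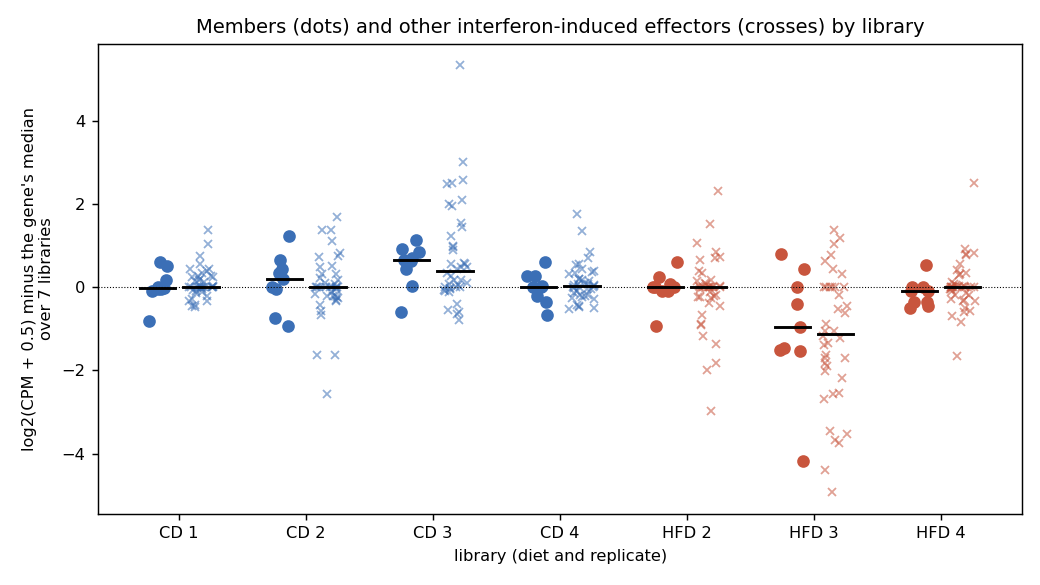
Difference of log2(CPM + 0.5) from the gene's median over 7 libraries (y axis) in each library (x axis), for the 9 members (dots) and 40 other interferon-induced effectors (crosses), with CD in blue, HFD in red and black bars at the medians. CD 3 lies above 0 (medians 0.67 and 0.39) and HFD 3 below it (medians −0.96 and −1.12), while the medians of the other 5 libraries lie between −0.09 and 0.20.

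Of 12 interferon genes on the list 0 had enough counts to be tested, and Ifnl2 alone had any count (at most 2 in a library). The receptors and Janus kinases were present. Of their 9 tested genes, 6 (66.7%) were below 0, against 57.9% of all genes. Without CD 3 and HFD 3, 5 (55.6%) were below 0, against 51.4% of all genes. At an unadjusted p under 0.05, 1 (Jak1) was lower, against 2.91% of all genes. Jak1, the kinase shared by the type I, II and III receptors, had 255, 240, 278 and 237 CPM on CD and 205, 178 and 212 CPM on HFD. The groups did not overlap, and the log2 fold change was −0.35 ± 0.11 (SE, edgeR unadjusted p = 0.0123, adjusted p = 0.817). Without CD 3 and HFD 3 it was −0.23 ± 0.12 (SE, edgeR unadjusted p = 0.0752). Jak2 had −0.73 ± 0.46, and −0.12 ± 0.22 without both.

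Of 9 other STATs and IRFs tested, 4 were above and 5 (55.6%) below 0, against 57.9% of all genes. Stat3, a STAT of the IL-6 family of cytokines, had 907, 871, 786 and 934 CPM on CD and 784, 526 and 701 CPM on HFD. All 3 HFD libraries were below every CD library, HFD 2 by a narrow margin, and the log2 fold change was −0.38 ± 0.13 (SE, edgeR unadjusted p = 0.0186, adjusted p = 0.817). It was −0.29 ± 0.09 without CD 3 and HFD 3 and −0.25 ± 0.10 without HFD 3 alone.

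Of 8 inhibitors tested, 4 were above and 4 (50%) below 0, against 57.9% of all genes. The 2 with an unadjusted p under 0.05 pointed in opposite directions, where 2.91% of all genes were lower and 2.86% higher. Socs3, a feedback inhibitor of Janus kinases, had 125, 139, 113 and 79.3 CPM on CD and 79.5, 69.8 and 59.9 CPM on HFD. Only CD 4 fell within the HFD range, and the log2 fold change was −0.71 ± 0.20 (SE, edgeR unadjusted p = 0.00597, adjusted p = 0.731). It was −0.72 ± 0.23 without CD 3 and HFD 3, and its adjusted p was 0.0367 by DESeq2. Pias3, an inhibitor of STAT3 and SUMO ligase, was above every CD library in the 3 HFD libraries (38.2, 52.1 and 31.9 CPM against 22.1 to 28.6), with 0.64 ± 0.23 (SE, edgeR unadjusted p = 0.0197, adjusted p = 0.817). It was 0.34 ± 0.18 without CD 3 and HFD 3 (SE, edgeR unadjusted p = 0.0829) and 0.41 ± 0.20 without HFD 3 alone (SE, edgeR unadjusted p = 0.0662). Usp18, which removes ISG15 and blocks the type I receptor, had −0.25 ± 0.26, and −0.05 ± 0.20 without both.

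Of 13 sensors and adaptors tested, 11 (84.6%) were below 0, against 57.9% of all genes, with a median log2 fold change of −0.35. At an unadjusted p under 0.05, 0 were lower or higher, against 2.91% and 2.86% of all genes. Without CD 3 and HFD 3, 10 (76.9%) were below 0, against 51.4% of all genes, and the median was −0.16. Tlr3, the endosomal sensor of double-stranded RNA, had 3.61, 1.79, 19.7 and 5.88 CPM on CD and 1.33, 0 and 1.74 CPM on HFD. The groups did not overlap, but at these low levels the log2 fold change of −2.91 ± 1.33 (SE, edgeR unadjusted p = 0.0557) went to −1.30 ± 0.84 without CD 3 and HFD 3. Ddx58, the RIG-I sensor, had −0.35 ± 0.21, and −0.16 ± 0.17 without both. Tank, an adaptor upstream of IRF3, had 0.50 ± 0.31, and 0.37 ± 0.26 without both.

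Of the 40 other effectors tested, 33 (82.5%) were below 0, against 57.9% of all genes, with a median of −0.48. This count also depended on the 2 libraries. Without both, 23 of 42 (54.8%) were below 0, against 51.4% of all genes, and the median was −0.04. Helz2, a helicase that serves as a nuclear receptor coactivator, had −0.50 ± 0.18 (SE, edgeR unadjusted p = 0.0205) and kept −0.46 ± 0.15 without both. Znfx1, a helicase sensor of RNA, had −0.56 ± 0.24 (SE, edgeR unadjusted p = 0.0420), and −0.25 ± 0.16 without both. Tor3a, an interferon-responsive torsin, had 0.39 ± 0.17 (SE, edgeR unadjusted p = 0.0478) and 0.19 ± 0.16 without both. The effectors of highest level per kilobase, Lgals3bp and Isg20, had −0.10 ± 0.13 and 0.00 ± 0.18.

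Relatives of the effectors gave no unadjusted p under 0.05, where 2.91% of all genes were lower and 2.86% higher. Of 13 other PARP family genes tested, 9 (69.2%) were below 0, against 57.9% of all genes, and the median of −0.05 was nearer 0 than the −0.08 of all genes. Parp12 had −0.48 ± 0.28, Parp6 −0.37 ± 0.21, and Dtx3l, the ubiquitin ligase listed with its partner PARP9, −1.26 ± 1.08 with 0 CPM in HFD 3. Without CD 3 and HFD 3 Parp12 had −0.14 ± 0.20, Parp6 −0.10 ± 0.15 and Dtx3l −0.21 ± 0.25. Of 10 genes of RNA editing, eIF2 kinases and partners, 7 (70%) were below 0, against 57.9% of all genes. Their median was −0.53, and −0.08 without CD 3 and HFD 3. Eif2ak3, which encodes the endoplasmic reticulum kinase PERK, had 0.27 ± 0.16, Ppp1r15b, a subunit of the eIF2α phosphatase, had −0.41 ± 0.26, and Adarb1, the second editing enzyme, had −0.69 ± 0.51. Without HFD 3 alone, Eif2ak3 had 0.04 ± 0.13, Ppp1r15b −0.13 ± 0.14 and Adarb1 −0.22 ± 0.16. Without both libraries they had 0.06 ± 0.13, −0.13 ± 0.15 and −0.18 ± 0.15. Over all pathway lists, 75 of 102 tested genes (73.5%) were below 0, with a median of −0.34, against 57.9% and −0.08 for all genes. Without CD 3 and HFD 3, 65 of 106 (61.3%) were below 0, with a median of −0.08, against 51.4% and −0.01 for all genes. At an unadjusted p under 0.05 there were 5 lower and 2 higher genes among the 102, where 2.91% of all genes were lower and 2.86% higher.

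Markers of other cells were given for the same libraries because immune and endothelial cells also express these genes. The summed level of the 9 macrophage markers in the table (of 10 listed) was 49.9 to 76.9 CPM on CD and 47.2 to 60.4 CPM on HFD, and CD 3 had the lowest sum on CD. C1qa was the largest term except in HFD 3, where Fcer1g had 26.4 CPM and C1qa 19.5. Fcer1g, an Fc receptor chain of myeloid cells, was above every CD library (2.42 to 4.54 CPM) in HFD 2 to 4 (9.38, 26.4 and 5.21 CPM), with a log2 fold change of 1.99 ± 0.65 (SE, edgeR unadjusted p = 0.0129, adjusted p = 0.817). Of the other markers, C1qb, C1qc, Tyrobp, Lyz2 and Aif1 had at most 1.61 CPM in any library, Csf1r had 1.08 to 4.61 CPM on CD and 0 to 1.62 on HFD, and Cd68 had 1.34 to 5.25 CPM on CD and 1.04 to 9.79 on HFD, the highest in HFD 3. T and NK cell markers summed to 0 to 4.02 CPM on CD and 0 on HFD. The B cell and plasmacytoid dendritic cell markers summed to 2.95 to 6.52 CPM on CD and 0 to 6.05 CPM on HFD, nearly all Cd79a, with Ms4a1, Cd79b and Siglech at 0. Endothelial markers summed to 3.19 to 5.44 and 3.39 to 8.12 CPM, and stromal markers to at most 2.5 and 0.763 CPM. Acinar markers ranged from 52.3 CPM in CD 1 to 2260 CPM in CD 2 on CD and from 0.641 CPM in HFD 3 to 1830 CPM in HFD 2 on HFD, and CD 3 was at 305 CPM. Ductal markers summed to 211 to 292 CPM on CD and 182 to 279 CPM on HFD, mostly Krt7. Of these, Spp1 had 53.6 CPM in CD 3, the library of high Ifit1, against 6.78 or less in the others. The α-cell markers summed to 81.4 to 306 CPM on CD and 73.9 to 154 CPM on HFD, mostly Gcg, and the δ-cell markers, mostly Sst, to 377 to 1100 and 370 to 596 CPM. CD 3 had the highest α-cell and ductal sums. The part of these cells in the members' values was not tested.

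The genes most like the members were found by Pearson r with the mean of the members' standardized log2 values over the 7 libraries. They were Sbf2 (r = 0.996), Ttc34 (0.992), Trmt1 (0.989), Nostrin (0.985) and Ggcx (0.984), none of which is in the pathway lists. This is a description over 7 libraries that share the order of CD 3 and HFD 3, and r was the highest of 12354 genes by choice. Among the members, Stat2 followed the mean of the other 8 most closely (r = 0.934), then Parp10 (0.902) and Parp14 (0.778), while Zc3hav1 was at 0.575, and Adar (−0.186) and Eif2ak2 (−0.274) were the lowest.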

How the data were processed

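mRNA of sorted β-cells was sequenced from 4 CD and 3 HFD mice. The authors deposited raw read counts per gene symbol in one table with a column for each library, without normalization. Per the labels, libraries were stranded, and the submitters' processing notes name mm10 and edgeR. Which aligner and counting tool were used is not given in the sources used here. The use of strand is also not given, so reads of overlapping genes cannot be told apart. Of 24062 rows, 27 that hold a date in place of a symbol (at most 0.155% of a library's counts) were left out, and 98.4% of the other 24035 genes matched GENCODE M21 (GRCm38), which gave coordinates (counted from 1) and transcript lengths. Libraries held 10559175 to 22557957 counts, and the floor of 3 counts covers counting error only.

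The main fit was edgeR 4.0.16 (R 4.3.3): filterByExpr, TMM, glmQLFit and glmQLFTest on HFD against CD over all 7 libraries, two-sided, with Benjamini-Hochberg adjustment over 12354 genes. Each p sets the difference between diets against the spread between libraries. As each mouse gave a single library, variation between mice, sorts and libraries cannot be told apart. Errors of log2 fold changes are standard errors. Scripts were tested on simulated data. Alternatives were DESeq2 1.42.0, limma 3.58.1 (voom), the likelihood ratio test, other scalings and filters, a replicate block, and each library left out in turn. Leaving out CD 3 and HFD 3 together and scaling levels by the coding transcript were chosen after seeing the data. The replicate numbers carry no stated meaning.

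The 9 genes and all gene lists were chosen with earlier results of these data known. Named are the members, in each pathway list up to 3 genes of lowest p and up to 2 of highest level per kilobase, up to 2 of each marker list, and the 5 genes most like the members. Ifnl2, C1qb, C1qc, Isg15, Ifit2, Oas1a, Mx2, Spp1, Tyrobp, Lyz2, Csf1r, Cd68, Aif1, Ms4a1, Cd79b, Siglech, the genes that overlap a member and the genes named for CD 3 fall outside that rule, and some genes that it covers are not reported here.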

Additional observations from a re-analysis of the deposited data

Results flagged for a closer look

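Among the 4 CD libraries, 13 of 111 genes of the members and pathway lists had 1 library that lay far from the other 3, by a gap to the nearest library that, as a share of the group's range, passed Dixon's critical value for 4 samples. This is 11.7% of the 111, where 7.46% of all 12354 genes tested had it and about 1 in 20 would by chance with normal values. Of the 9 members 0 had it. CD 3 was the high library in 10 (9.01% of the 111, against 2.9% of all genes), and the gap as a share of the range was 0.973 for Ifit1, 0.96 for Ifit3, 0.96 for Oas1b, 0.949 for Oasl2, 0.866 for Mx1, 0.859 for Irgm1 and 0.842 for Trim34a among the interferon-induced effectors. It was 0.924 for Parp2, 0.908 for Dtx3l and 0.919 for Zc3hav1l, a relative of Zc3hav1. CD 4 was the high library for Oas2 (0.831) and Nlrc5 (0.851), and CD 3 was the low library for Ikbke (0.882), a kinase upstream of IRF3. The genes share 1 library and are not independent of each other.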

How the results depend on the processing

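The count of genes past an adjusted p of 0.05 was 0 by the main edgeR fit, with 713 genes under an unadjusted p of 0.05, and was 137 by DESeq2, 23 by the likelihood ratio test and 1 without CD 3 and HFD 3. With 1 library left out it was 0 to 2, the 2 being without HFD 3. For the members it was 1 by DESeq2 (Zc3hav1) and 0 otherwise. The members' count at an unadjusted p under 0.05 was 3 with all libraries and 1 to 4 with 1 library left out, with 1 (Zc3hav1) without CD 2, without CD 3 or without HFD 3. Stat2 also passed it no longer without HFD 4, and Parp10 without CD 4. Over all genes tested, the count with 1 library left out itself moved, from 474 of 12175 (without CD 1) to 1119 of 12581 (without HFD 4). With the replicate block the members' count was also 1, of 375 genes over the table. Deviations from the group mean had r = 0.0253, 0.00424 and 0.0816 for libraries of the same number, and −0.0567 to 0.0202 for those of different numbers. With so few libraries this cannot exclude pairs. The numbers were not read as pairs in the main fit because they carry no stated meaning. With 1 library left out, the log2 fold change of Irf7 ranged from −0.49 to 0.53 (−1.65 by limma-voom and −0.83 with the replicate block) and that of Adar from −0.28 to 0.40. Irf7 reversed to 0.22 without CD 1, 0.53 without HFD 3 and 0.36 without CD 3 and HFD 3, and Adar to −0.14 without CD 2 and −0.28 without HFD 3. The cause was not tested. The other 7 members kept their direction in all alternatives.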
